A study of Homo sapiens with 6 samples.

Results

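The nuclear genes that encode the subunits of oxidative phosphorylation were described in human cardiomyocytes derived from pluripotent stem cells (hiPSC-CMs). They were taken by symbol from the series table: NDUFA, NDUFB, NDUFC, NDUFS and NDUFV genes, SDHA to SDHD, and every symbol beginning with UQCR, with COX and a number from 4 to 8, or with ATP5. The pattern matched 99 of the 21134 genes listed, and 5 of them, read-through and antisense genes with a hyphen in the symbol, were left out, which left 94 genes. By their textbook roles 81 of the 94 encode subunits: 37 of complex I, 4 of complex II, 8 of complex III, 17 of complex IV and 15 of complex V. The other 13 are 7 assembly factors of complex I (NDUFAF1 to NDUFAF7), 3 gene copies (ATP5L2, NDUFAF4P1 and UQCRHL) and 3 associated factors (ATP5S, ATP5SL and COX7A2L). NDUFA4, named after complex I, was counted with complex IV, where its protein is known to sit. As a check of the symbols, 77 of the 81 subunit genes (95.1%) carried a mitochondrial or respiratory chain term in the gene ontology column of the series, against 2.15% of all genes.

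RNA sequencing was performed on 6 libraries of hiPSC-CMs made from the line H9, which comes from a human embryo although the labels name the cells after induced pluripotent stem cells. The 3 groups were untreated cells (control, n = 2), cells given 100 mM alcohol for 24 h (alcohol, n = 2) and cells given 100 mM alcohol together with 1 μM losartan, a blocker of the angiotensin II receptor AT1R, for 24 h (co-treated, n = 2). The comparisons asked whether alcohol changed the expression of these genes and whether losartan given with alcohol changed it, and a group with losartan alone was not analysed here. The labels number the libraries of a group as repeats without saying that they came from separate cultures, so each p-value measures only the spread between these samples, which may be technical.

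The expected counts of a library, the read counts per gene estimated by the authors, summed to between 4898287 and 5051448, and 3 counts correspond to 0.594 to 0.612 CPM (counts scaled to the size of the library). The 10 cardiomyocyte markers were all expressed, with a summed FPKM (fragments scaled to transcript length and library size) of 17995 to 25344. The sum was 730 to 1940 for 5 smooth muscle markers, 422 to 518 for 9 fibroblast markers and 5.88 to 10.5 for 5 endothelial markers. For 8 endoderm and liver markers it was 38.8 to 52.4, and for 7 pluripotent stem cell markers 13.0 to 20.1. In bulk RNA, fewer cells of a type and less of its RNA per cell cannot be told apart.

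In the inner mitochondrial membrane, complex I (NADH dehydrogenase) and complex II (succinate dehydrogenase) pass electrons to coenzyme Q, complex III hands them to cytochrome c, and complex IV (cytochrome c oxidase) gives them to oxygen. Complexes I, III and IV pump protons, and complex V (ATP synthase) uses the returning protons to make ATP, which is what the beating heart muscle mainly runs on. Some subunits exist as alternative isoforms: COX6A2 and COX7A1 are the heart and skeletal muscle forms of COX6A1 and COX7A2, NDUFA4L2 is an oxygen-sensitive relative of NDUFA4 and a known target of hypoxia-inducible factor (HIF), and ATP5G1, ATP5G2 and ATP5G3 encode the same mature c subunit of the ATP synthase ring.

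Genes of the respiratory chain are known to share promoter motifs of nuclear respiratory factor 1 (NRF1) and of the ETS-type factor GABP, so the 250 bases upstream of each gene's start in the RefSeq promoter table (build GRCh38.p14) were searched on both strands for a pair of GCGC blocks spaced by AN, where N is any base (NRF1), for CCGGAAG (ETS) and for ACGTG (the core bound by HIF). Of the 81 subunit genes, 67 had an entry. The NRF1 letters were found for 14 of these (20.9%), against 6.20% of the 27305 genes in the table, and the ETS letters for 17 (25.4%), against 10.2%. The HIF core was about as frequent in the subunit genes (16, or 23.9%) as in all genes (21.7%). A match of letters is a description and not a bound site. Printed below, with every match in capitals and read 5′ to 3′ on the gene's strand, are the windows of 3 genes whose levels are described further on: UQCR11 (chr19:1605463-1605712, minus strand), a small subunit of complex III and 1 of the 2 subunit genes with both NRF1 and ETS letters; COX5B (chr2:97645812-97646061, plus strand), a subunit of complex IV with ETS letters alone; and NDUFA4L2 (chr12:57240763-57241012, minus strand), with none of the 3 motifs in either of its 2 windows, the first of which is shown. The RefSeq start of each gene follows directly on the printed run.

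UQCR11: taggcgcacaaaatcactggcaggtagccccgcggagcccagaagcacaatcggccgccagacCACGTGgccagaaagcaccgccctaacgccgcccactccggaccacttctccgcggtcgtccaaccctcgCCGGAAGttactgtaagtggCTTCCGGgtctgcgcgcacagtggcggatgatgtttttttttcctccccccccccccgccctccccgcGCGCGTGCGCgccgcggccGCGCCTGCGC
COX5B: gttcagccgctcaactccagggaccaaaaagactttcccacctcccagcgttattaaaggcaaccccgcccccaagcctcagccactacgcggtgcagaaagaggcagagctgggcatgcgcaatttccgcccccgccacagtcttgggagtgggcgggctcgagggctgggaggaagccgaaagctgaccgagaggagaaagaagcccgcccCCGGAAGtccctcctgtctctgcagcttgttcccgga
NDUFA4L2: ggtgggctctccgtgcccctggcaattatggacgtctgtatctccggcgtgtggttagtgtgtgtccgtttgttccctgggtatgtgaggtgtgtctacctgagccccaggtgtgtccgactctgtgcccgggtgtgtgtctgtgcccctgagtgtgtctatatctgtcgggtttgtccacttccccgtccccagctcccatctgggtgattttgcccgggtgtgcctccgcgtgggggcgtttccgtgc

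The UQCR11 window held 2 matches each for the NRF1 and the ETS letters, and its CACGTG counts as 2 matches of the HIF core because it is read on both strands.

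The subunit genes were among the highest expressed in these cells. Their median was 96.5 FPKM (mean over the 6 libraries, 81 genes), at percentile 97.2 of all genes, and 76 of the 81 lay above 10 FPKM, against 31.0% of all genes. Above 100 FPKM were 38 of the 81, against 2.69% of all genes. Apart from the 6 alternative isoforms of complex IV, the genes ranged from 21.4 FPKM for NDUFA7, an accessory subunit of complex I, to 643 FPKM for ATP5B, the catalytic beta subunit of ATP synthase, a span of 30.1-fold. FPKM values are scaled by transcript length, so the order of genes by level also rests on the length assigned to each. In control replicate 1, NDUFA13 and NDUFA5 had 618 and 620 expected counts but 231 and 21.6 FPKM.

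The complexes differed in their typical level. The median gene reached 77.9 FPKM in complex I, 61.9 in complex II, 109 in complex III, 236 in complex IV without its alternative isoforms, and 191 in complex V. Complex I ran from NDUFA7 up to NDUFA13 (234 FPKM), an accessory subunit, and its 7 core subunits, which carry the flavin and the iron-sulfur clusters, lay between NDUFS1 (63.9 FPKM) and NDUFV2 (116). Complex II had the narrowest range, from SDHC (35.1 FPKM), a membrane anchor, to SDHA (82.3), the flavoprotein that oxidises succinate. In complex III the lowest was UQCRB (44.7 FPKM) and the highest UQCRH (297), the hinge protein, while the core proteins UQCRC1 and UQCRC2 and the iron-sulfur protein UQCRFS1 lay at 157, 184 and 138 FPKM. In complex IV the range ran from COX7A2 (93.3 FPKM) to COX7C (585), both small accessory subunits. In complex V it ran from ATP5D (55.0 FPKM), the delta subunit, to ATP5B, with ATP5A1, the alpha subunit, next in order at 584 FPKM.

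**Figure D1:**
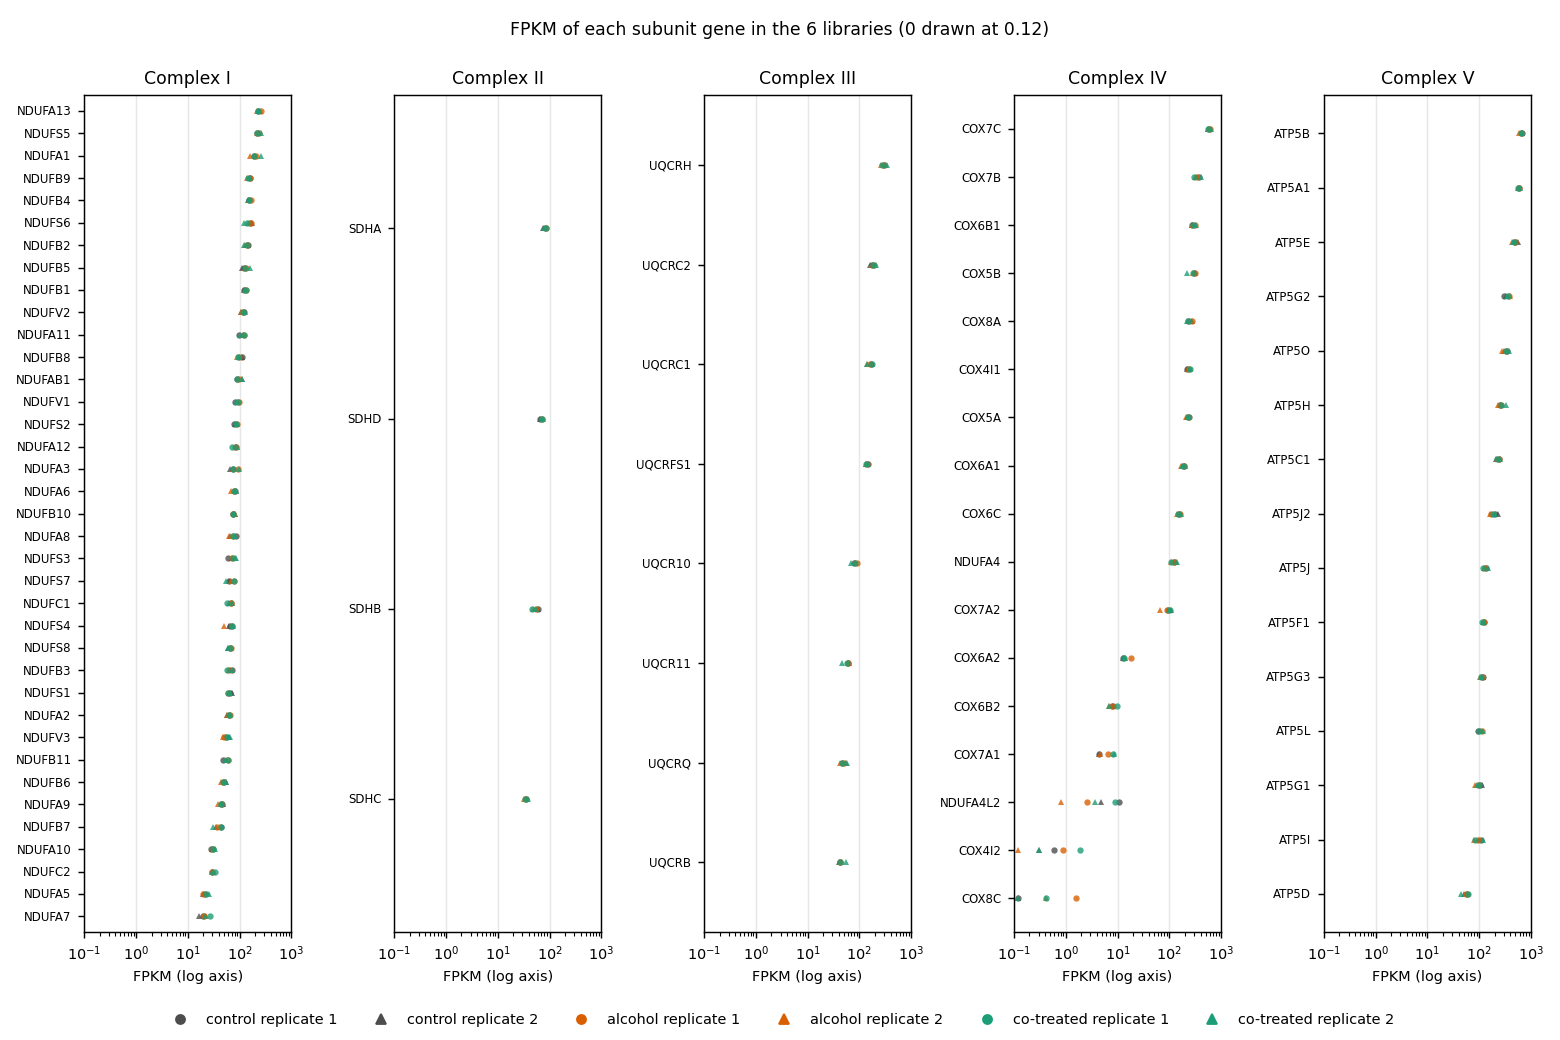
FPKM of each of the 81 subunit genes in the 6 libraries on a log axis, 1 panel per complex, genes ordered by their mean and points coloured by group, with the replicates as circles and triangles (a value of 0 is drawn at 0.12). Most genes have their 6 points almost on top of each other, and only NDUFA4L2, COX4I2 and COX8C spread widely.

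The summed FPKM of each complex moved little between groups. Complex I summed to 3344 and 3414 FPKM in the control libraries, 3502 and 3224 in the alcohol libraries and 3339 and 3535 in the co-treated libraries (replicates 1 and 2 in this order throughout). Complex V summed to 3831 and 3882, then 3803 and 3546, and then 3704 and 3971. The log2 ratio of the alcohol to the control mean was -0.0069 for complex I, 0.028 for complex II, -0.047 for complex III, -0.030 for complex IV and -0.069 for complex V. The ratio of the co-treated to the alcohol mean lay between -0.015 for complex II and 0.063 for complex V. With 2 libraries a group an exact two-sided permutation test cannot give a p below 0.33, so no test of the sums was run. In all 5 complexes the 2 alcohol libraries lay farther from each other than any pair of group means.

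**Figure D2:**
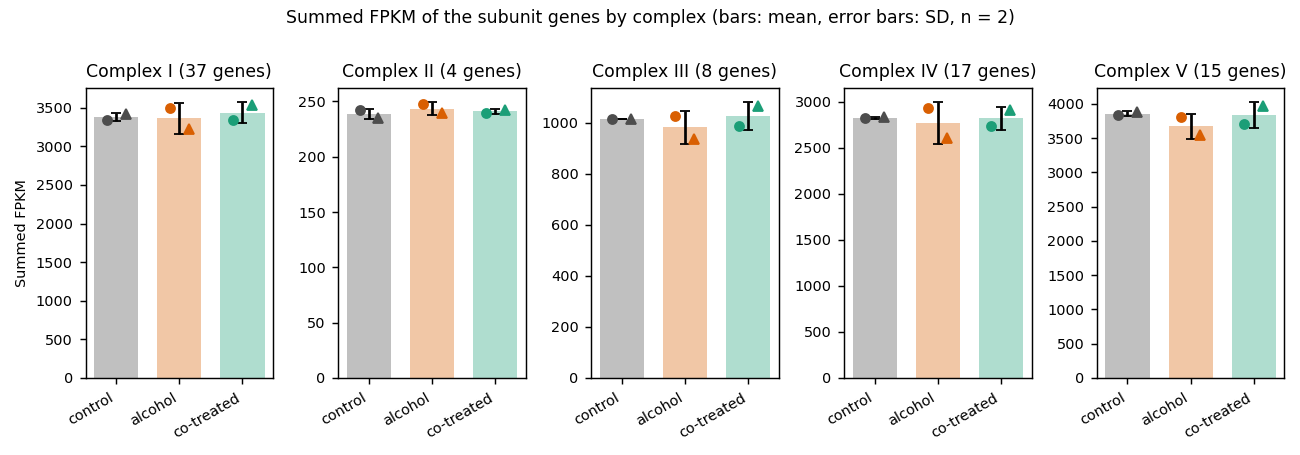
Summed FPKM of the subunit genes of each complex, as the mean of each group (bar), the SD (error bar, n = 2) and the 2 libraries (circle, replicate 1; triangle, replicate 2). Alcohol replicate 2 is the lowest of the 6 libraries for complexes I, III, IV and V, and co-treated replicate 2 the highest for complexes I, III and V.

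This order of libraries ran through the single genes. Of the 79 subunit genes that passed the expression filter, 32 (40.5%) had their lowest FPKM in alcohol replicate 2, against 13.5% of all genes tested, and 1 (1.27%) in alcohol replicate 1, against 16.6%. The highest FPKM was in co-treated replicate 2 for 35 of the 79 (44.3%), against 19.6% of all genes. On the log2 CPM scale the median subunit gene lay 0.05 above its own mean in control replicate 1, 0.01 above in control replicate 2, 0.05 above in alcohol replicate 1 and 0.07 above in co-treated replicate 2. It lay at -0.13 in alcohol replicate 2 and at -0.04 in co-treated replicate 1. The 2 libraries of a treated group thus sat on opposite sides of the gene's mean. The cardiomyocyte marker sum was also lowest in alcohol replicate 2 (17995 FPKM) and next lowest in co-treated replicate 1 (20901). The other 4 libraries had 22700 to 25344. The largest part of this sum was MYL7, with 14512 and 16180 FPKM in the control libraries and its lowest value, 9321, in alcohol replicate 2. Single markers were mixed in that library: ACTN2 (323 FPKM) and MYL2 (821) were at their lowest, MYH6 (737) and NKX2-5 (151) at their highest. The median log2 fold change of the 10 markers for alcohol against control was 0.02. The sum of 5 smooth muscle markers was 1940 and 1700 FPKM in the control, 1463 and 730 in the alcohol and 1005 and 1044 in the co-treated libraries. The part of these cell markers in the levels of the subunit genes was not tested.

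**Figure D3:**
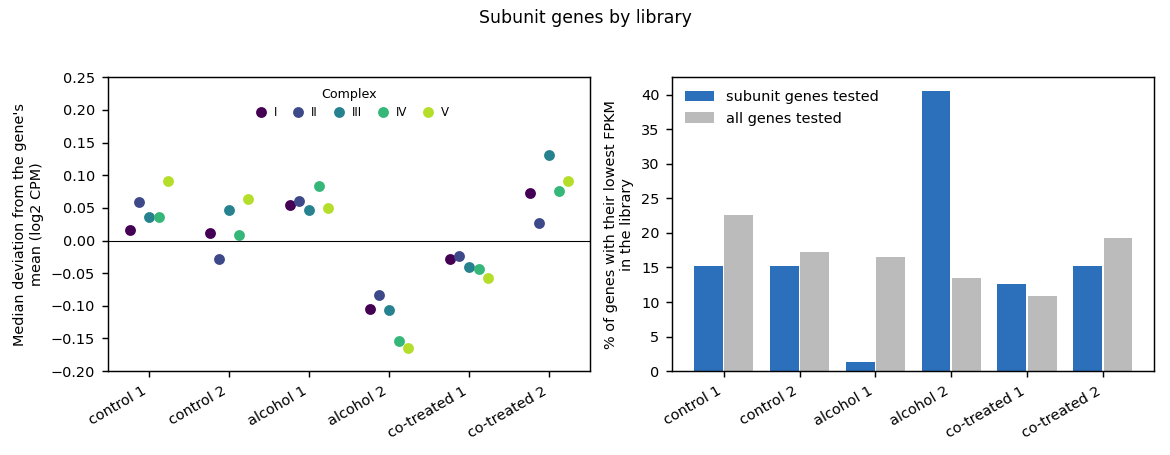
Left, the median deviation of the subunit genes tested from each gene's mean over the 6 libraries (log2 CPM), by library and complex. Right, the share of genes with their lowest FPKM in each library, for the 79 subunit genes tested and for all 14926 genes. All 5 complexes lie below 0 in alcohol replicate 2 and in co-treated replicate 1, and alcohol replicate 2 holds the lowest value of 40.5% of the subunit genes.

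For alcohol against control, none of the 94 genes was called. Of the 14926 genes with enough counts for edgeR's quasi-likelihood test, 10 (0.0670%) passed an adjusted p of 0.05, and none of them was among the 89 genes of this family that were tested. At an unadjusted p under 0.05 by edgeR there were 6 of the 89, 1 higher and 5 lower in alcohol, against 11.0% of all genes (5.27% higher and 5.78% lower). DESeq2, a second count test, also called none, with 3 at an unadjusted p under 0.05. It gave no adjusted p for NDUFA4L2, which was therefore counted as not called. The log2 fold change was above 0 for 33 and below 0 for 56 of the 89 (above 0 for 49.4% of all genes), with a median of -0.07, against -0.0033 over all genes. In FPKM the groups did not overlap for 43 of the 79 subunit genes tested (54.4%; 42.4% of all genes), 21 higher and 22 lower in alcohol (24.7% and 17.7% of all genes). The 95% confidence interval of the log2 fold change lay wholly within ±0.5 for 56 of the 79 subunits (70.9%), against 33.5% of all genes, and within ±1 for 77 of the 79. The median standard error was 0.133 for the subunits and 0.193 for all genes, and the subunits were the more abundant, with a median log2 CPM of 6.56 against 4.68.

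By complex, the genes lower in alcohol numbered 21 of 37 in complex I, 2 of 4 in complex II, 5 of 8 in complex III, 10 of 15 in complex IV and 12 of 15 in complex V, with medians of -0.03, -0.01, -0.08, -0.07 and -0.11 on the log2 scale. The family median without alcohol replicate 2 was 0.01, and without alcohol replicate 1 it was -0.16, so its direction rested on alcohol replicate 2. Among the main subunits of the complexes, NDUFS1, the largest of complex I, had 66.1 and 71.0 FPKM in control, 59.9 and 61.3 in alcohol and 59.3 and 65.6 in co-treated cells. Its log2 fold change in alcohol was -0.22 ± 0.12 (SE; adjusted p = 0.528, edgeR). The control values lay above both alcohol values, by less than the test could call. NDUFV1, which binds NADH, had a log2 fold change of 0.07 ± 0.12, SDHA 0.07 ± 0.12, COX4I1, the main isoform of subunit 4 of complex IV, 0.02 ± 0.12, and ATP5A1 -0.02 ± 0.13 (SE; adjusted p from 0.875 to 0.975, edgeR). ATP5B stood at 680 and 680 FPKM in control, 636 and 576 in alcohol and 633 and 655 in co-treated cells, a log2 fold change in alcohol of -0.20 ± 0.13 (SE; adjusted p = 0.613, edgeR). NDUFA4 had 125 and 136 FPKM in control, 124 and 108 in alcohol and 108 and 141 in co-treated cells. In alcohol this gave a log2 fold change of -0.21 ± 0.15 (SE; adjusted p = 0.671, edgeR), and the highest alcohol and the lowest control value lay side by side. SDHA had 83.5 and 74.1, then 86.5 and 83.8, and then 87.3 and 78.5 FPKM, and UQCRC1 167 and 173, then 157 and 139, and then 171 and 137. For UQCRC1 both alcohol libraries lay below both control libraries, with a log2 fold change of -0.24 ± 0.13 (SE; adjusted p = 0.548, edgeR).

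The 5 largest differences in each direction among genes whose groups did not overlap included members of every complex but II and III. NDUFA4L2 lay lowest in alcohol, with 10.7 and 4.89 FPKM in control against 2.52 and 0.81 in alcohol, or 68 and 31 expected counts against 16 and 5. Its log2 fold change was -2.24 ± 0.57 (SE; 95% CI -3.48 to -1.01), the unadjusted p was 0.0017 and the adjusted p 0.167 by edgeR. The call depended on the fit: NDUFA4L2 passed with the replicate number as a block (-2.27, adjusted p = 0.0260, edgeR) and without alcohol replicate 1 (-3.30, adjusted p = 0.0478, edgeR), and over the other edgeR and limma fits the adjusted p ran from 0.114 to 0.766. In each group replicate 1 had the higher value. Both alcohol values were below both control values, but the 2 control libraries themselves differed by more than a factor of 2. ATP5J2, the f subunit of the membrane part of ATP synthase, had 203 and 234 FPKM in control, 166 and 161 in alcohol and 182 and 200 in co-treated cells, a log2 fold change in alcohol of -0.43 ± 0.13 (SE; adjusted p = 0.229, edgeR). Its expected counts were fractional in all 6 libraries. The read-through gene ATP5J2-PTCD1 was listed at 4.71 to 9.67 FPKM, and its part in the values of ATP5J2 was not tested. COX7A2 had 94.5 and 106 FPKM in control against 91.8 and 66.3 in alcohol (log2 fold change -0.37 ± 0.17), and its gap rested mostly on alcohol replicate 2. NDUFB8, an accessory subunit of complex I, had 113 and 114 FPKM against 99.0 and 87.8 (-0.32 ± 0.13), and ATP5G1, 1 of the 3 genes for the c subunit, 101 and 113 against 93.3 and 82.0 (-0.33 ± 0.14). The adjusted p of these 3 genes lay between 0.370 and 0.423 by edgeR.

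On the other side, ATP5G2 had 306 and 322 FPKM in control, 370 and 397 in alcohol and 359 and 345 in co-treated cells. Its log2 fold change in alcohol was 0.24 ± 0.11 (SE; 95% CI 0.0040 to 0.49; adjusted p = 0.443, edgeR). All 4 treated libraries were above both controls. COX7A1 (0.28 ± 0.39), COX6A2 (0.25 ± 0.33), NDUFA7 (0.23 ± 0.24) and NDUFS7 (0.19 ± 0.17), a core iron-sulfur subunit of complex I, had log2 fold changes (± SE) whose confidence intervals spanned 0, and their adjusted p lay between 0.734 and 0.852 by edgeR.

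For co-treated against alcohol cells, none of the 89 genes tested was called, and of all genes 2 (0.0134%) were. At an unadjusted p under 0.05 by edgeR there were 2 of the 89, 1 in each direction, against 5.55% of all genes (2.84% higher and 2.71% lower), and DESeq2 called none and had 1. The log2 fold change was above 0 for 56 and below 0 for 33 (above 0 for 50.3% of all genes), with a median of 0.04 against 0.0023 over all genes. The median was -0.04 without alcohol replicate 2 and -0.02 without co-treated replicate 2. The FPKM of the groups did not overlap for 19 of the 79 subunits (24.1%; 32.3% of all genes), 13 higher and 6 lower in co-treated cells (18.0% and 14.3% of all genes), and 61 of the 79 (77.2%) had a confidence interval within ±0.5, against 37.7% of all genes. The alcohol libraries enter both this comparison and that of alcohol with control, so the 2 are not independent.

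NDUFA4L2 was again the gene with the largest difference, with 8.76 and 3.64 FPKM in co-treated cells (54 and 23 expected counts) above both alcohol libraries. Its log2 fold change was 1.86 ± 0.59 (SE; 95% CI 0.59 to 3.12), with an adjusted p of 0.836 by edgeR. COX7A1 came next (0.60 ± 0.36), and its values are given with the isoforms. COX7A2 had 104 and 97.6 FPKM, above both alcohol libraries (0.33 ± 0.17). NDUFV3, an accessory subunit of complex I, had 57.6 and 64.5 FPKM in co-treated against 51.1 and 47.2 in alcohol cells (0.28 ± 0.14). NDUFS4, an accessory subunit needed for a stable complex I, had 72.2 and 74.8 FPKM against 71.5 and 50.7 (0.25 ± 0.18), so that 1 alcohol library lay close to the co-treated ones. Lower in both co-treated than in both alcohol libraries were NDUFAF3, an assembly factor (-0.38 ± 0.16), COX5B (-0.27 ± 0.13), NDUFS6, an accessory subunit with a zinc site (-0.25 ± 0.14), UQCR11 (-0.20 ± 0.13) and NDUFS8, a core iron-sulfur subunit (-0.16 ± 0.14), all as log2 fold change ± SE. The adjusted p of these genes lay between 0.884 and 0.937 by edgeR.

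For co-treated against control cells, again none of the 89 was called, and of all genes 54 (0.362%) were. At an unadjusted p under 0.05 by edgeR there were 6 of the 89, 3 in each direction, against 12.6% of all genes (6.26% higher and 6.37% lower), and DESeq2 called none and had 2. The log2 fold change was above 0 for 39 and below 0 for 50 (above 0 for 49.8% of all genes). Its median was -0.04, against -0.0017 over all genes, and it turned to 0.01 when libraries were scaled by their totals alone, where the median over all genes was 0.05. Leaving out replicate 1 of the co-treated cells turned it to 0.05 and leaving out replicate 2 gave -0.08, so its direction rested on co-treated replicate 1. The groups did not overlap for 32 of the 79 subunits (40.5%; 43.4% of all genes), 17 higher and 15 lower (27.1% and 16.3% of all genes), and 62 of the 79 (78.5%) had a confidence interval within ±0.5, against 31.9% of all genes.

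NDUFS6 had 162 and 177 FPKM in control, 167 and 143 in alcohol and 139 and 124 in co-treated cells. Its log2 fold change in co-treated against control cells was -0.41 ± 0.14 (SE; 95% CI -0.71 to -0.12; adjusted p = 0.215, edgeR). Both co-treated values lay below the other 4. COX5B, whose promoter window is printed above, had 305 and 313 FPKM in control, 317 and 285 in alcohol and 282 and 223 in co-treated cells (-0.34 ± 0.13). NDUFB8, with 93.5 and 96.0 FPKM in co-treated cells (-0.30 ± 0.13), was below the controls in all 4 treated libraries. SDHB, the iron-sulfur subunit of complex II, had 59.4 and 60.0 FPKM in control, 55.1 and 48.6 in alcohol and 45.9 and 54.5 in co-treated cells (-0.29 ± 0.14). UQCR11 had 59.3 and 64.3, then 60.5 and 60.6, and then 58.8 and 47.0 FPKM (-0.27 ± 0.13), its lower values resting on co-treated replicate 2. Higher in both co-treated than in both control libraries were COX7A1 (0.88 ± 0.37), NDUFA7 (0.37 ± 0.24), NDUFB5 (0.29 ± 0.13), COX7A2L, which takes part in joining complexes III and IV into supercomplexes (0.27 ± 0.12), and the core subunit NDUFS3 (0.22 ± 0.13). All 10 values are log2 fold changes ± SE, and the adjusted p of the 9 genes after NDUFS6 lay between 0.307 and 0.575 by edgeR.

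**Figure D4:**
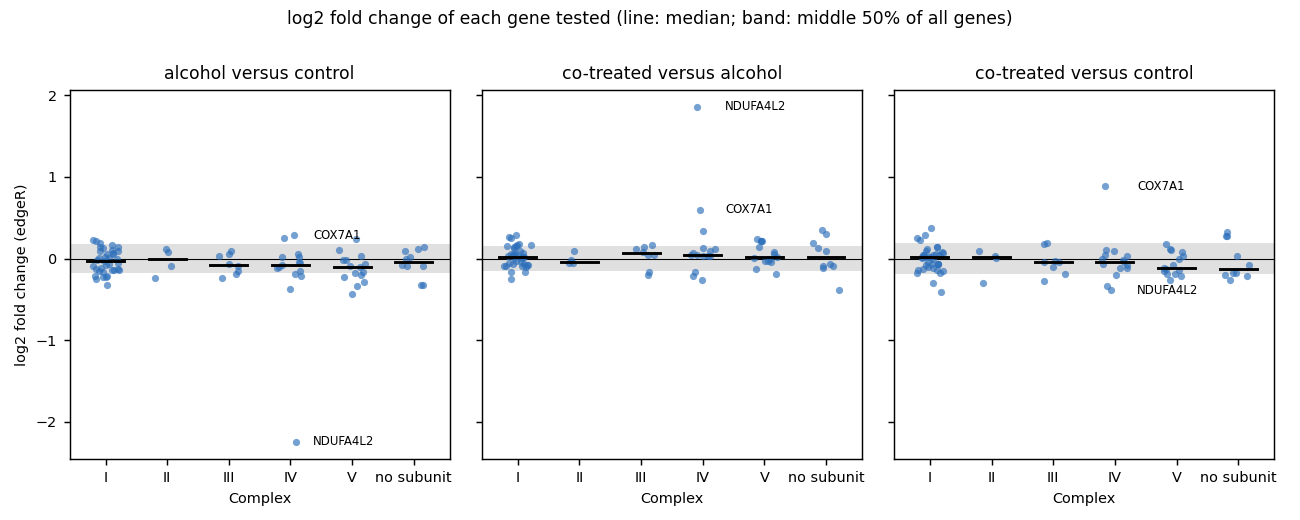
edgeR log2 fold change of each of the 89 genes tested, by complex, in the 3 comparisons (points, with the median of each complex as a line), over the middle 50% of all 14926 genes tested (band). The medians of the complexes stay close to 0 and inside the band, and NDUFA4L2 and COX7A1 are the 2 genes beyond 0.5.

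Beyond 0.5 on the log2 scale lay 1 subunit gene for alcohol against control (NDUFA4L2; 13.7% of all genes tested), 2 for co-treated against alcohol (NDUFA4L2 and COX7A1; 9.60% of all genes) and 1 for co-treated against control (COX7A1; 14.3% of all genes). All were alternative isoforms of complex IV at few counts, so the isoforms were set beside the gene of the same subunit. COX7A1 had 4.43 and 4.45 FPKM in control, 6.52 and 4.57 in alcohol and 8.34 and 8.65 in co-treated cells, from 17 to 33 expected counts. As a share of the FPKM of COX7A1 and COX7A2 together it made 4.48% and 4.04% in control, 6.63% and 6.45% in alcohol and 7.46% and 8.14% in co-treated cells. These shares did not overlap between any 2 of the groups, but alcohol replicate 2 had 17 expected counts of COX7A1, as did both control libraries. COX7A2 itself was at 66.3 FPKM in alcohol replicate 2 and at 91.8 to 106 in the other libraries. With 2 libraries a group the smallest exact permutation p is 0.33, and the shares were not tested. The log2 fold change of COX7A1 in co-treated against control cells, 0.88 (95% CI 0.08 to 1.69), had an unadjusted p of 0.034 and an adjusted p of 0.341 by edgeR, and for alcohol against control it was 0.28, turning to -0.03 without alcohol replicate 1.

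COX6A2, the other muscle isoform, stood at 13.0 and 13.0 FPKM in control, 17.8 and 13.9 in alcohol and 13.4 and 14.0 in co-treated cells, or 6.01% to 8.49% of COX6A1 and COX6A2 together. The muscle isoforms of both subunits were thus the minor forms in all 6 libraries. Of NDUFA4 and NDUFA4L2 together, NDUFA4L2 made 7.87% and 3.47% in control, 1.99% and 0.75% in alcohol and 7.49% and 2.51% in co-treated cells, and the 2 libraries of each group differed by more than a factor of 2. For co-treated against control cells its log2 fold change was -0.39 ± 0.47 (SE; adjusted p = 0.793, edgeR) and changed sign when control replicate 1 (0.30) or co-treated replicate 2 (0.10) was left out. COX6B2, the testis form of COX6B1, made 2.08% to 3.28% of its pair. COX4I2, the lung form of subunit 4, and COX8C, another testis form, had at most 6 and 4 expected counts in a library and were not tested.

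Among the 3 genes for the c subunit of ATP synthase, ATP5G2 made 58.2% and 58.2% of their summed FPKM in control, 64.1% and 68.2% in alcohol and 63.0% and 63.5% in co-treated cells. ATP5G1 made 19.2% and 20.3%, then 16.2% and 14.1%, and then 17.7% and 17.0%, and ATP5G3 went from 22.6% and 21.5% to 19.7% and 17.6% and to 19.3% and 19.6%. The share of ATP5G2 in all 4 treated libraries was above, and those of ATP5G1 and ATP5G3 below, both control libraries. With 2 libraries a group the smallest exact permutation p is 0.33, and this set was singled out after its values were seen.

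**Figure D5:**
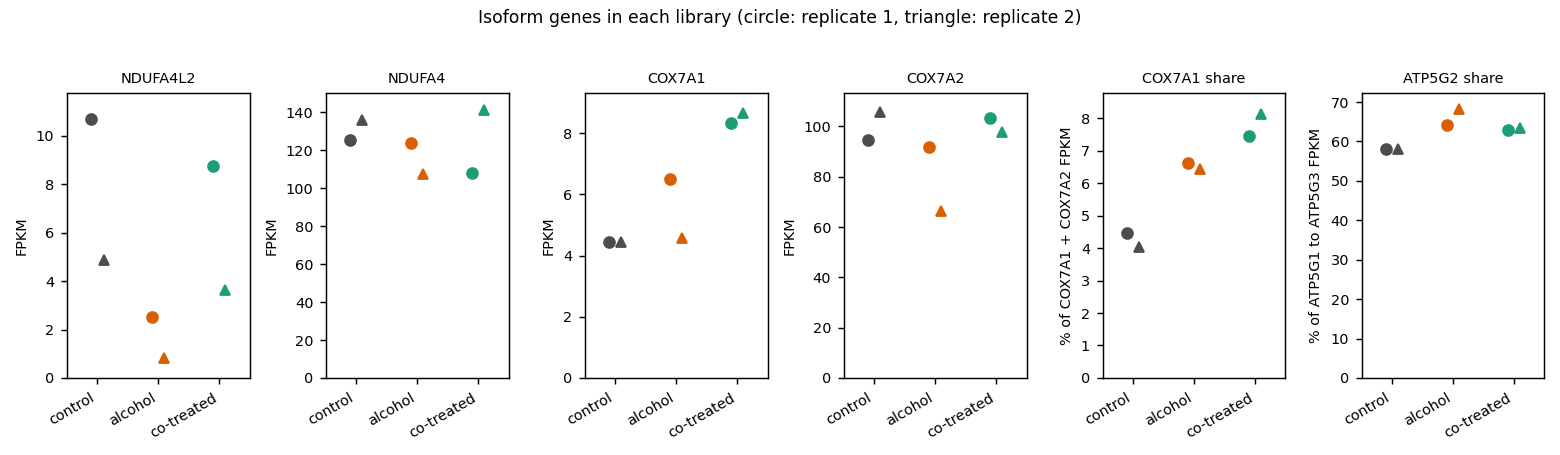
FPKM of NDUFA4L2, NDUFA4, COX7A1 and COX7A2, the share of COX7A1 in COX7A1 and COX7A2, and the share of ATP5G2 in the 3 c subunit genes, in each library (circle, replicate 1; triangle, replicate 2). COX7A1 makes 4.04% to 8.14% of its pair, lowest in the 2 control libraries, and ATP5G2 makes 58.2% of its set in both controls and 63.0% to 68.2% in the treated libraries.

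The 13 genes of the family that encode no subunit lay lower, with a median of 8.02 FPKM. The highest was COX7A2L, with 85.9 and 81.2 FPKM in control, 91.7 and 98.4 in alcohol and 101 and 108 in co-treated cells, and all 4 treated libraries were above both controls. The 7 NDUFAF assembly factors ran from NDUFAF6 (4.06 FPKM) to NDUFAF3 (38.2), and NDUFAF3 had 38.3 and 39.7 FPKM in control, 45.5 and 39.2 in alcohol and 37.2 and 29.4 in co-treated cells. The gene copies ATP5L2, NDUFAF4P1 and UQCRHL stayed under 3 FPKM in every library and were not tested. UQCRHL had at most 0.22 FPKM beside 262 to 346 for its near-identical relative UQCRH, and how far the counting could tell the pair apart is uncertain. Of the 81 subunit genes, 64 had whole expected counts in all 6 libraries and 13 fractional ones in all 6, SDHA, NDUFA4 and NDUFC2 among them. A count that is not whole may hold reads divided between genes, so these values are less certain. Whether the counting used strand is not given in the sources used here. How far reads of NDUFA6, NDUFB2 and NDUFV2 could be told apart from those of their antisense genes was not tested. These 3 genes had whole expected counts in all 6 libraries, and their antisense genes were listed apart at no more than 4.91 FPKM.

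The genes around the family gave no call either. None of 15 regulators of the respiratory chain tested was called in any of the 3 comparisons. ESRRG, an estrogen-related receptor that drives mitochondrial genes in heart, had a log2 fold change of 0.48 ± 0.15 in alcohol (SE; adjusted p = 0.244, edgeR), with 10.6 and 11.5 FPKM in control against 12.9 and 18.3. ESRRA, its relative, had 20.5 and 19.7 FPKM in control, 19.6 and 21.2 in alcohol and 16.8 and 13.2 in co-treated cells, a log2 fold change of -0.47 ± 0.15 in co-treated against control cells (SE; adjusted p = 0.224, edgeR). PPRC1, a coactivator of the PGC-1 family, and POLRMT, the mitochondrial RNA polymerase, were at -0.49 and -0.46 in the same comparison, and regulators at an unadjusted p under 0.05 by edgeR there numbered 4 of 15, 1 higher and 3 lower, against 12.6% of all genes.

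Of 41 further assembly factors tested, none was called, and at an unadjusted p under 0.05 by edgeR there were 6 for alcohol against control and 3 for co-treated against control, all higher in the treated cells (backgrounds 5.27% and 6.26% of all genes in that direction), and 0 for co-treated against alcohol. NUBPL, which delivers iron-sulfur clusters to complex I, had 15.2 and 15.4 FPKM in control, 18.1 and 22.5 in alcohol and 22.3 and 24.0 in co-treated cells. Its log2 fold change was 0.37 ± 0.14 in alcohol and 0.54 ± 0.14 in co-treated cells against control (SE; adjusted p = 0.341 and 0.113, edgeR). COA5, an assembly factor of complex IV, had 18.1 and 18.9 FPKM in control against 22.9 to 27.3 in the 4 treated libraries. The median of the 41 was 0.05 in both comparisons with control, while that of the 89 genes tested of the matched family was -0.07 and -0.04. The 7 NDUFAF assembly factors within that family had medians of -0.08 and -0.18, with 5 of 7 lower in each.

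Among 14 citric acid cycle genes, 19 mitochondrial membrane and carrier genes and 17 cristae and coenzyme Q genes tested, none was called in any comparison. CYCS, which encodes the cytochrome c that links complexes III and IV, had 72.7 and 66.2 FPKM in control, 57.4 and 47.7 in alcohol and 55.6 and 58.2 in co-treated cells, with all 4 treated libraries below the controls (log2 fold change in alcohol -0.44 ± 0.14 SE; adjusted p = 0.244, edgeR). COQ2, of coenzyme Q synthesis, had 9.86 and 9.41 FPKM in control, 10.5 and 10.3 in alcohol and 15.1 and 13.5 in co-treated cells (log2 fold change against control 0.52 ± 0.19 SE; adjusted p = 0.264, edgeR). None of the 13 subunits encoded by mitochondrial DNA was listed by symbol, so the mitochondrial share of complexes I, III, IV and V was not analysed here.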

How the data were processed

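The authors deposited, for each of the 6 libraries, a transcript length, an expected count per gene (a read count estimated by their software) and the FPKM made from it. A table of the whole series, also deposited, pairs this FPKM with gene symbols. The submitters' processing notes name HISAT2 2.0.4, Bowtie2 2.2.5, RSEM 1.2.12 and the genome hg38, without their roles or settings. Of the expected counts 33.9% were not whole. Libraries were grouped by the treatment in their labels.

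Expected counts were rounded and tested with edgeR 4.0.16 in R 4.3.3: quasi-likelihood F test, two-sided, TMM scaling (factors 0.970 to 1.03) and the filter filterByExpr. A single fit held all 6 libraries, and p-values were adjusted after Benjamini and Hochberg over the 14926 genes tested, with a threshold of 0.05. The standard errors are not edgeR output: each is the absolute log2 fold change over the square root of F. The 95% confidence intervals were built from them with the t distribution. FPKM was used for levels, sums and shares. Alternatives were DESeq2 1.42.0, limma 3.58.1 on log2(FPKM + 1) and log2(FPKM + 0.1), other scalings and filters, a replicate block, fits on 2 groups, and each library left out in turn. A gene to which a fit gave no adjusted p was counted as not called in that fit. The edgeR fit was also run on counts simulated with dispersions estimated from these data. Of genes changed by 1 and by 2 on the log2 scale, 64.9% and 88.9% were called. There were 10 false calls among 14705 genes tested, and 0 when no gene was changed. Libraries of a group correlated at 0.975 to 0.978 (Pearson's r, log2 CPM), and their counts differed by more than sampling noise (chi-square per degree of freedom 4.46 to 7.30).

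The genes, their roles and the other lists were chosen with earlier results of these data known. Fold changes were printed for 8 main subunits, 2 isoforms and, per comparison, the 5 genes highest and the 5 lowest among those whose groups did not overlap in FPKM. With 2 libraries a group their number and the depth limit the precision, and the floor of 3 counts covers counting error only. Promoter windows and gene starts are from RefSeq, build GRCh38.p14, and the printed windows hold at most 28 bases annotated as exon in GENCODE.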

Additional observations from a re-analysis of the deposited data

How the results depend on the processing

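Of 621 alternative values for 39 fold changes of named genes, 608 kept their direction and their side of the threshold, 11 changed direction, and 2 passed it, both NDUFA4L2 in alcohol against control. That gene was the 1 called with the replicate block (log2 fold change -2.27, adjusted p = 0.0260) and the 1 called without alcohol replicate 1 (-3.30, adjusted p = 0.0478), where the lone alcohol library is assumed to vary like the other groups. Calls with 1 library left out thus numbered 0 to 1 for alcohol against control, and 0 for the other 2 comparisons under every alternative. Its adjusted p by edgeR or limma otherwise ran from 0.114 to 0.766; it was not tested with at least 10 counts in every library and its DESeq2 value was not given. The replicate numbers were not taken to pair the libraries: same-numbered libraries deviated together with r of 0.114, -0.016 and 0.041 over all genes and of 0.243, 0.254 and 0.203 over the family (alcohol with control, co-treated with control, co-treated with alcohol), with 2 pairs a comparison and no label that ties a number to a shared batch, and the replicate block moved the calls among all genes from 10 to 48, from 2 to 5 and from 54 to 136. DESeq2 called 72, 5 and 123 genes, limma on log2(FPKM + 1) 0, 1 and 2, and leaving out alcohol replicate 1 gave 220 for alcohol against control. Leaving out co-treated replicate 1 or 2 gave 4 and 2 for co-treated against control.

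With 1 library left out, the median log2 fold change of the family ran from -0.16 (without alcohol replicate 1) to 0.0062 (without alcohol replicate 2) for alcohol against control, from -0.04 to 0.11 for co-treated against alcohol and from -0.08 to 0.05 for co-treated against control. Without SDHA, its highest subunit, the ratio of complex II became -0.014 (alcohol to control) and -0.016 (co-treated to control). The fold change of ATP5A1 in alcohol became 0.02 with limma on either pseudocount (0.0196 both times) and with library totals (0.0195), and ran from -0.0685 to 0.0419 with 1 library left out. The other changes of direction came with 1 library left out: COX7A1 -0.0257 to 0.55, SDHA -0.0102 to 0.19 and COX4I1 -0.0670 to 0.12 in alcohol, NDUFS4 -0.0162 to 0.57 in co-treated against alcohol, and NDUFA4L2 -1.13 to 0.30 in co-treated against control. The cause was not tested. COX4I2 and COX8C, with at most 6 and 4 expected counts in a library, were too shallow to test. NDUFA4L2 had 5 to 68 expected counts, and its 2 libraries differed by more than a factor of 2 in each group.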

Other observations

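1 row outside the family was looked at after its values were seen. It is listed under the symbol MIR6723, while its KEGG column reads cytochrome c oxidase subunit 1, a mitochondrially encoded subunit of complex IV. Its level was 9744 and 9081 FPKM in control, 11373 and 12248 in alcohol and 11458 and 13628 in co-treated cells, and all 4 treated libraries lay above both controls. By edgeR its log2 fold change was 0.29 ± 0.13 for alcohol against control (SE; adjusted p = 0.438), 0.08 ± 0.13 for co-treated against alcohol and 0.37 ± 0.13 for co-treated against control (adjusted p = 0.256). Which transcript the reads of this row came from was not tested.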
